A study of Mus musculus with 4 samples.

Results

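The 36 genes described here are a list of autosomal Wnt and Fgf genes of the mouse, 18 of each, which does not hold every member of these families and was taken by name from the 21281 autosomal protein-coding genes of the GENCODE M1 annotation (mm9). Binding of RAD21, a subunit of the cohesin complex, was mapped at them by ChIP-seq, the sequencing of DNA that co-precipitates with a protein. Reads were counted within 1 kb of each gene start, and the deposited RAD21 peaks were collected within 100 kb of each gene body. The samples were R1/E mouse embryonic stem cells (ESCs, day 0) and embryoid bodies (EBs, day 12) made from them in hanging drops. R1/E is an established mouse ESC line, and EBs are aggregates in which ESCs differentiate into a mixture of cell types. All 4 libraries came from a transfected line, sorted for GFP, in which a bacterial artificial chromosome supplies RAD21 with a GFP tag beside the cells' own RAD21. Each cell type had 1 library precipitated with an antibody against GFP (RAD21) and 1 with a goat IgG isotype control, whose descriptions also speak of input DNA. There were no replicates, so no test between ESCs and EBs was possible, and every interval below is at the 95% level and covers counting error only. Binding data hold no RNA levels, so the labelled cell types could not be checked against marker genes, and nothing here says which of the genes were expressed.

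Wnt proteins are secreted, lipid-modified signals that bind Frizzled and LRP receptors, and stabilise beta-catenin or act through pathways independent of it. Most Fgf proteins are secreted and bind Fgf receptors with heparan sulphate or Klotho proteins as partners. Both families regulate the exit of ESCs from self-renewal and the patterning of the germ layers. Fgf11, Fgf12 and Fgf14 are named with the ligands but stay inside the cell and regulate sodium channels. Cohesin encircles DNA, keeps sister chromatids joined until division and shapes DNA loops, often at sites of the insulator protein CTCF.

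The sequences below show the bound DNA on which the later comparisons turn. The first 7 are 60-base stretches of mm9 around the best match to a CTCF weight matrix within 150 bp of a RAD21 summit, read on the strand of the match, with the 20 matched bases in capitals. The matrix was learned from the RAD21 peaks of the other chromosomes. The first 5 of these matches passed the threshold that 1e-05 of random positions pass, at 18.5 to 20.4 bits, and are called motifs below. The next 2 passed only the threshold of 1e-04, at 15.0 to 16.7 bits.
Fgf3, ESC-only, chr7:152032239-152032298, plus strand: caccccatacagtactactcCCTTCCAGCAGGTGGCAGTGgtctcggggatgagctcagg
Fgf17, ESC-only, chr14:71047012-71047071, minus strand: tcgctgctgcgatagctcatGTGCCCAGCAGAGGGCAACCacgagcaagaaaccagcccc
Wnt4, ESC-only, chr4:136843924-136843983, minus strand: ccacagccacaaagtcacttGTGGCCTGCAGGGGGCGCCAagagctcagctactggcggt
Wnt9b to Wnt3, shared, chr11:103625222-103625281, plus strand: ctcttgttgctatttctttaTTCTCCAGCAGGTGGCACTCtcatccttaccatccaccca
Wnt5b, shared, chr6:119439906-119439965, plus strand: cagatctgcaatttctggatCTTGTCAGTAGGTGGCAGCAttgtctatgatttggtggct
Fgf17 intron, ESC-only, chr14:71037730-71037789, minus strand: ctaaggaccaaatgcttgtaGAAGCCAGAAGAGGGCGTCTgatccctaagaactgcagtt
Fgf2, EB-only, chr3:37371546-37371605, plus strand: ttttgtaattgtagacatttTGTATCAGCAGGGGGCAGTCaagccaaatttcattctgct
The last 2 are the 150 bases of the plus strand around summits where the best match stayed under both thresholds, and they have no capitals.
Fgf3, ESC-only, chr7:151976111-151976260: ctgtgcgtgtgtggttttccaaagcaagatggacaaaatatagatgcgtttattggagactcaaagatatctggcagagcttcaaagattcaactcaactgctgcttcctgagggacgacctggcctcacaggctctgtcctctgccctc
Fgf9, shared and higher in EBs, chr14:58653614-58653763: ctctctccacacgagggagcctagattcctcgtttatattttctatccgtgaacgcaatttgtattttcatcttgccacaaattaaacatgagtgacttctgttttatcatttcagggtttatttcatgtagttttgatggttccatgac

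The libraries differed in depth, with 13714772 autosomal reads for RAD21 and 12602155 for IgG in ESCs, and 7740389 and 6929293 in EBs. Read counts are therefore compared relative to 1000000 autosomal reads (RPM), and ratios of single genes or peaks were formed after 1 read was added to each count. The 36 gene starts together held 505 ESC RAD21, 199 EB RAD21, 306 ESC IgG and 134 EB IgG reads, so a single start rests on few reads. The starts were richer in G and C than most, with a median GC content of 56.8% against 51.3% over all genes. Coverage of the surrounding DNA also differed between cell types. Away from peaks, the EB to ESC ratio over the 31 loci that the genes form ranged from 0.666 to 1.30 for RAD21 (median 0.864) and from 0.616 to 1.24 for IgG (median 0.866). Each of them was below 1 in 25 of 31 loci, though not in all the same loci. The part of this background in the differences below was not tested.

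At the starts of Wnt genes RAD21 exceeded IgG modestly in both cell types. In ESCs the summed ratio of RAD21 to IgG was 1.38 (1.13 to 1.70) over the 18 Wnt starts, against 1.26 over all genes, and in EBs it was 1.47 (1.02 to 2.13) against 1.44. Over all 36 members, 10 had a ratio of at least 2 in ESCs (background 16.6% of all genes) and 8 in EBs (background 25.6%). The Wnt genes held 3 of the 10 and 5 of the 8. The highest Wnt ratio in ESCs was that of Wnt8a, a signal of the posterior primitive streak, at 3.52 (1.49 to 13.7). Its start held 22 ESC RAD21 and 5 ESC IgG reads, against 4 and 2 in EBs. Wnt2b, a signal for lung and liver budding, followed with 3.06 from 9 RAD21 reads against 2 of IgG in ESCs, with 1 of each in EBs. Wnt7a, which sets dorsal identity in the limb, held 35 RAD21 reads against 13 of IgG in ESCs, and 11 against 0 in EBs. Its RAD21 was 2.36 times IgG (1.28 to 5.10) in ESCs. In EBs it was 3.28 times IgG with 3 reads taken as the limit that a count of 0 allows, and the counting interval began at 2.25. In EBs Wnt9a, a signal of joint formation, had 8 RAD21 reads and 1 IgG read, a ratio of 4.03 (0.960 to 318). Wnt5b, which acts mostly without beta-catenin, had 6 and 0, a ratio of 1.79 at the limit of 3 reads, with a counting interval that began at 1.05. Only for Wnt7a did the interval lie above 1 in both cell types among the Wnt genes.

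At the starts of Fgf genes the excess over IgG was above that of all genes in ESCs and below it in EBs. The summed ratio was 1.66 (1.35 to 2.05) in ESCs, against 1.26 over all genes, and 1.25 (0.934 to 1.67) in EBs, against 1.44. A ratio of at least 2 was found for 7 of the 18 Fgf genes in ESCs (background 16.6%) and for 3 in EBs (background 25.6%). Fgf1, a ligand that activates every Fgf receptor, stood out in both, with 43 RAD21 reads against 10 of IgG in ESCs, and 21 against 2 in EBs. Its ratios were 3.68 (1.96 to 8.82) and 6.56 (2.30 to 82.7). Fgf20, an ear and kidney ligand related to Fgf9, had the highest ESC ratio of all members, 4.59 (1.71 to 30.7), from 19 RAD21 and 3 IgG reads. In EBs it held 6 and 3. Fgf15, the mouse counterpart of the hormone FGF19, had 21 RAD21 reads against 7 of IgG in ESCs, a ratio of 2.53 (1.13 to 7.68), and 8 against 6 in EBs, a ratio of 1.15. Fgf21, a hormone of fasting made mostly by liver, had 5 RAD21 and 0 IgG reads in EBs, and 7 and 9 in ESCs. Its EB ratio was 1.49 at the limit of 3 reads, with a counting interval that began at 0.820 and so included 1. Taking the 3 members without an EB IgG read at this limit left 6 of the 8 at 2 or more and the EB median at 1.10. The start of Fgf10, a ligand for limb and lung budding, was the lowest in ESCs, at 0.438 (0.166 to 0.95) from 9 RAD21 and 20 IgG reads. That position is the start of a transcript that codes for no protein. At the first protein-coding start of Fgf10, 13 RAD21 and 4 IgG reads in ESCs gave 2.57 (0.923 to 12.6), an interval that included 1.

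**Figure D1:**
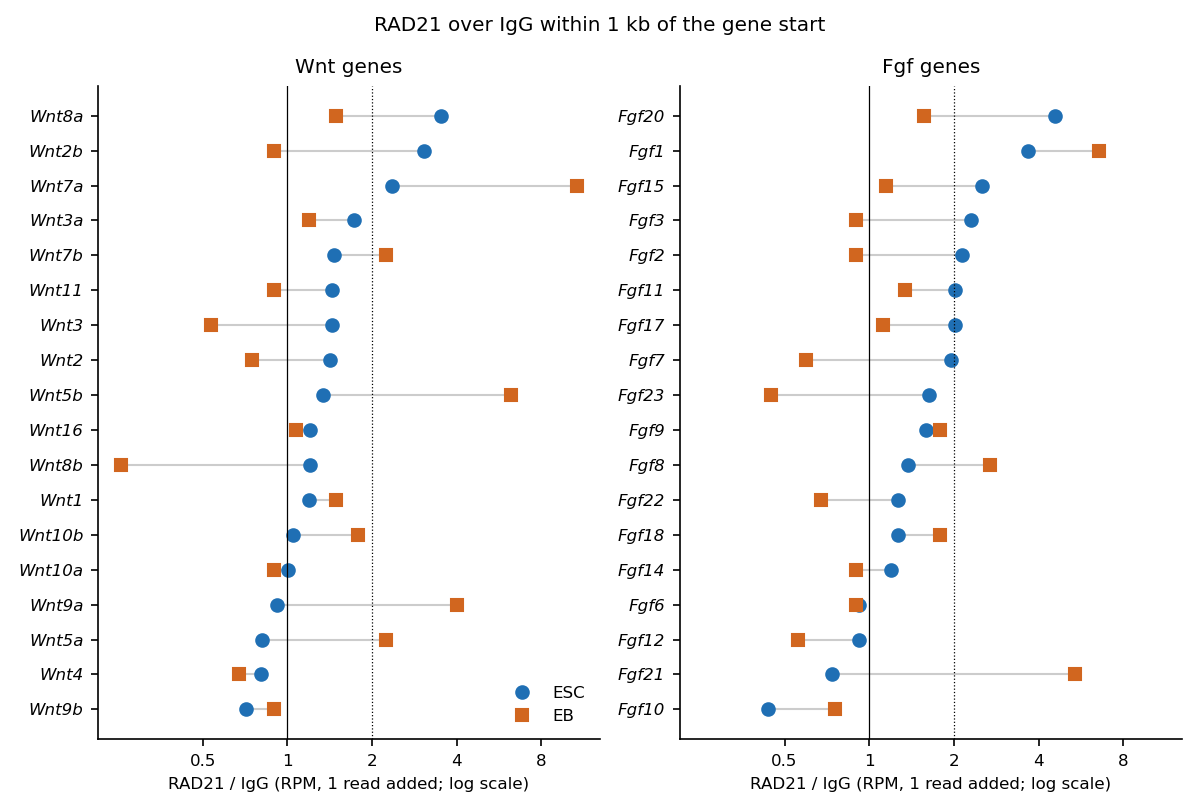
RAD21 over IgG (ratio of reads per library size, 1 read added, log scale) within 1 kb of each start, with circles for ESCs, squares for EBs, a solid line at 1 and a dotted line at 2. Fgf20 has the highest ESC value (4.59), while the far EB values of Wnt7a, Wnt5b and Fgf21 rest on 0 EB IgG reads.

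RAD21 at the starts was mostly lower in EBs than in ESCs. Summed over the 36 starts, the EB to ESC ratio was 0.698 (0.590 to 0.824), against 1.07 over all genes. The ratio was below 1 for 27 members (background 44.4%), 14 Wnt and 13 Fgf genes. It was at most 0.5 for 9 members (background 11.2%) and at least 2 for 1 (background 13.1%). The median member ratio was 0.717, against 1.09 over all genes. With starts compared only with those of like GC content the median was 0.684 and 27 members were again below 1. IgG was also lower in EBs at these starts, by a summed ratio of 0.796 (0.645 to 0.979) against 0.931 over all genes, which leaves 0.877 for the EB to ESC ratio of RAD21 over IgG. Singly, IgG was at most 0.5 for 8 members (background 12.6%) and at least 2 for 1 (background 9.89%). With 5 reads added to each count in place of 1, no member was at 0.5 or below.

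The families differed in what IgG did. At the Wnt starts both RAD21 and IgG were lower in EBs, with summed ratios of 0.603 (0.463 to 0.778) and 0.568 (0.405 to 0.785). At the Fgf starts RAD21 was at 0.785 (0.626 to 0.980) while IgG was at 1.05 (0.790 to 1.38). RAD21 relative to IgG was therefore close in ESCs and EBs at Wnt starts and lower in EBs at Fgf starts, and the difference between the families was not tested. The Wnt starts also had the higher median GC content, 59.9% against 54.1%.

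Of the Wnt genes, 6 had an EB to ESC ratio of RAD21 reads of at most 0.5. Wnt8b, a forebrain signal, held 16 RAD21 reads in ESCs and 1 in EBs, against 12 and 6 IgG reads, a RAD21 ratio of 0.208 (0.00264 to 0.713). Wnt8a held 22 and 4 RAD21 reads, a ratio of 0.385 (0.0807 to 0.949), with 5 and 2 IgG reads. These are the Wnt starts whose RAD21 interval stayed under 1. Wnt2b was at 0.354 and Wnt10a, a signal of tooth and hair follicle, at 0.443, from 9 against 1 and 11 against 2 RAD21 reads, and both intervals included 1. Wnt3a and Wnt3, the signals of axis and mesoderm formation, were at 0.472 and 0.483, from 14 against 3 and 10 against 2 reads. At the other end, Wnt9a held 8 RAD21 reads in both cell types, a ratio of 1.77 (0.580 to 5.42) after scaling for depth, while its IgG reads numbered 8 in ESCs and 1 in EBs.

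Of the Fgf genes, Fgf23, a bone hormone of phosphate balance, was lowest, with 22 RAD21 reads in ESCs and 3 in EBs, a ratio of 0.308 (0.0463 to 0.804), and 12 and 7 IgG reads. Fgf14 was at 0.409 and Fgf22, a signal of synapse formation, at 0.483, with intervals that included 1. Fgf8, which is made in the primitive streak and at the border of midbrain and hindbrain, had the highest ratio, 2.66 (0.818 to 11), from 5 ESC and 8 EB RAD21 reads and 3 and 2 IgG reads. Within 500 bp of the start this ratio was 0.886. Fgf10 followed at 1.95, Fgf2 at 1.52 and Fgf9 at 1.49, with 9 against 10, 6 against 5 and 18 against 15 RAD21 reads in ESCs and EBs. None of the 4 had an interval above 1. Fgf2, the ligand used in many stem cell cultures, has a gene record that begins at a transcript coding for no protein, and its first protein-coding start held 10 ESC and 9 EB RAD21 reads, a ratio of 1.61.

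**Figure D2:**
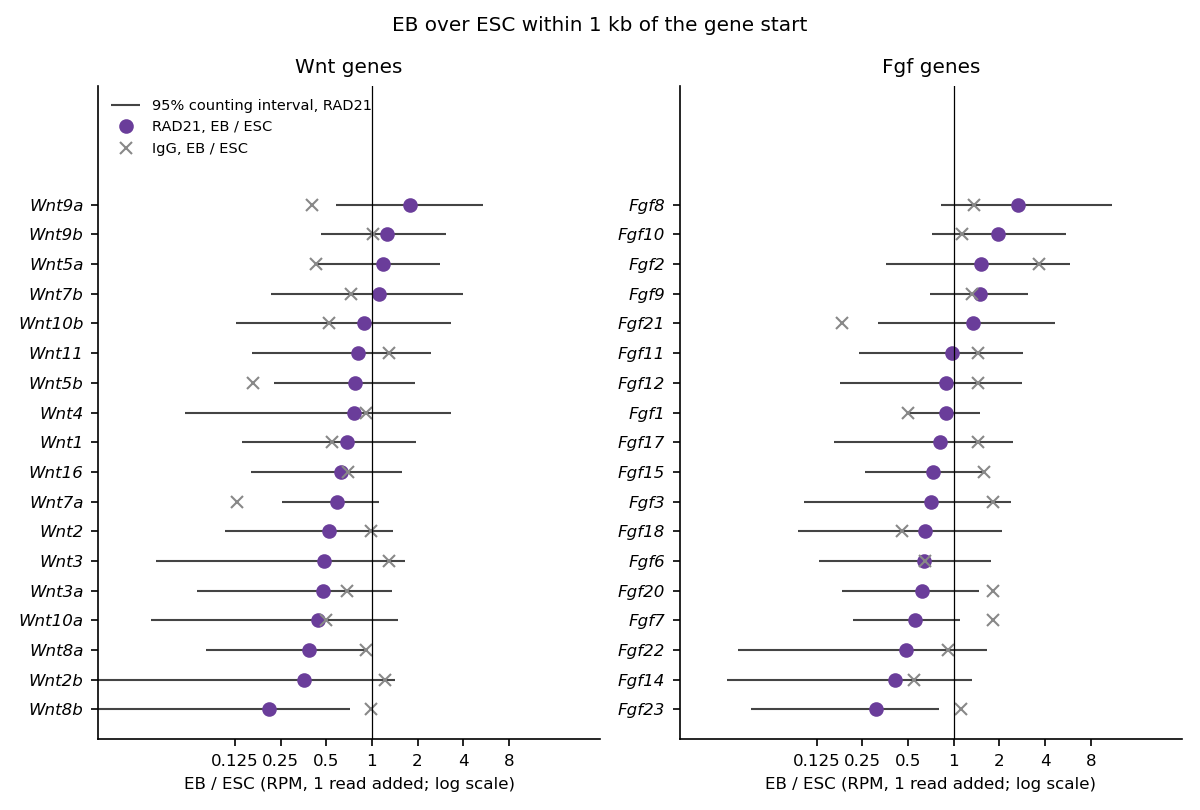
EB to ESC ratio (RPM, 1 read added, log scale) within 1 kb of each start, with filled circles for RAD21, lines for its 95% counting interval (from the reads as counted, cut at the left edge) and crosses for IgG. Most circles lie left of 1, and the intervals of Wnt8b, Wnt8a and Fgf23 do not reach it.

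The other genes of the same pathways were counted for comparison, 60 genes in 6 lists. Their summed EB to ESC ratio of RAD21 reads was 1.26 (1.12 to 1.42), with 5 genes at 0.5 or below (background 11.2%) and 15 at 2 or more (background 13.1%). For the 15 Wnt receptors it was 1.5 (1.16 to 1.94), with 1 lower and 4 higher by that rule. The feedback genes of both pathways, which these signals induce, were at 1.56 (1.15 to 2.12), with 0 lower and 3 higher of 10. The genes of Wnt signal transduction were at 1.41 (1.04 to 1.90). For secreted Wnt modulators the ratio was 1.12 (0.882 to 1.43), for Fgf signal transduction 1.16 (0.760 to 1.76) and for Fgf receptors 0.730 (0.478 to 1.09). The intervals of Wnt ligands and Wnt receptors do not overlap, but they leave out the spread between genes and between libraries. Single Wnt receptors ranged from 0.295 to 4.96, and the difference between the lists was not tested. IgG was at 0.568 in the Wnt ligands and 0.703 in the Wnt receptors. Lrp6, the co-receptor for beta-catenin signalling, had the highest ratio among the Wnt receptors, 4.96 (1.78 to 24.2), from 4 RAD21 reads in ESCs and 13 in EBs. Its IgG reads numbered 7 and 1. Dusp6, a phosphatase that dampens Fgf signalling, had 9 and 17 RAD21 reads, a ratio of 3.19 (1.41 to 8.52), with 6 IgG reads in each. In EBs, 32 of the 60 genes had RAD21 of at least 2 times IgG, against 25.6% of all genes, while the 8 of the 36 ligand genes were near that background. The limit of 3 reads for a count of 0 was not applied to the 60 genes. Some of the 32 rest on few EB reads, such as Sfrp5 and Lrp5, with 2 and 3 RAD21 reads against 0 of IgG.

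Few of the ligand genes had a deposited peak at the start, though their share was above that of all genes. An ESC peak reached within 1 kb of 4 starts, 11.1% (background 3.19%), those of Wnt7a, Wnt7b, Fgf1 and Fgf18. An EB peak reached 3, 8.33% (background 3.15%), those of Wnt7b, Fgf1 and Fgf18. The shares rest on these few genes and were not tested. Wnt7a was the only member with a summit within 1 kb, 491 bp upstream, where 28 ESC and 9 EB RAD21 reads and 8 ESC and 0 EB IgG reads were counted. The other summits lay 1110 to 1400 bp upstream, that of Wnt7b, a lung and kidney signal, inside an exon of AU022754. The Fgf1 summit held 46 ESC and 32 EB RAD21 reads, a ratio of 1.24 (0.760 to 1.98), and that of Fgf18, a cartilage and lung ligand, 24 and 13, a ratio of 0.992 (0.449 to 1.96). At Wnt7a the ratio was 0.611 (0.236 to 1.24), and at Wnt7b it was 0.857 (0.405 to 1.61) from 30 and 14 reads, so none of the 4 intervals excluded 1.

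Within 100 kb of the gene bodies lay 93 distinct ESC and 67 distinct EB peaks, in 8.38 Mb of DNA. This was 11.1 ESC and 8.0 EB peaks per Mb, against 6.10 and 4.36 over the autosomes. The autosomes include DNA far from genes, so this comparison does not single out the members. The median number per member was 3 ESC and 2 EB peaks. It was also 3 and 2 for the 60 other pathway genes, against 2 and 1 over all genes. At least 1 ESC peak was found for 33 members (background 82.3%) and at least 1 EB peak for 33 (background 73.6%). Wnt10b, a bone and mammary signal, and Fgf10 had none in either list (background 14.2%). There were more ESC than EB peaks at 20 members (background 51.9%) and more EB than ESC peaks at 6 (background 14.4%). Of the ESC peaks, 49 or 52.7% (42.1 to 63.1) overlapped an EB peak (background 48.6%), and of the EB peaks 49 or 73.1% (60.9 to 83.2) overlapped an ESC peak (background 68.3%). The shares were close to those of all peaks. When both cell types were called with 1 procedure at equal read numbers, 98 ESC and 92 EB sites lay near members, and 57.1% and 60.9% of them were shared. This procedure differed from that of the deposited lists in both the caller and the depth, so the parts of the 2 in the smaller gap cannot be told apart.

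**Figure D3:**
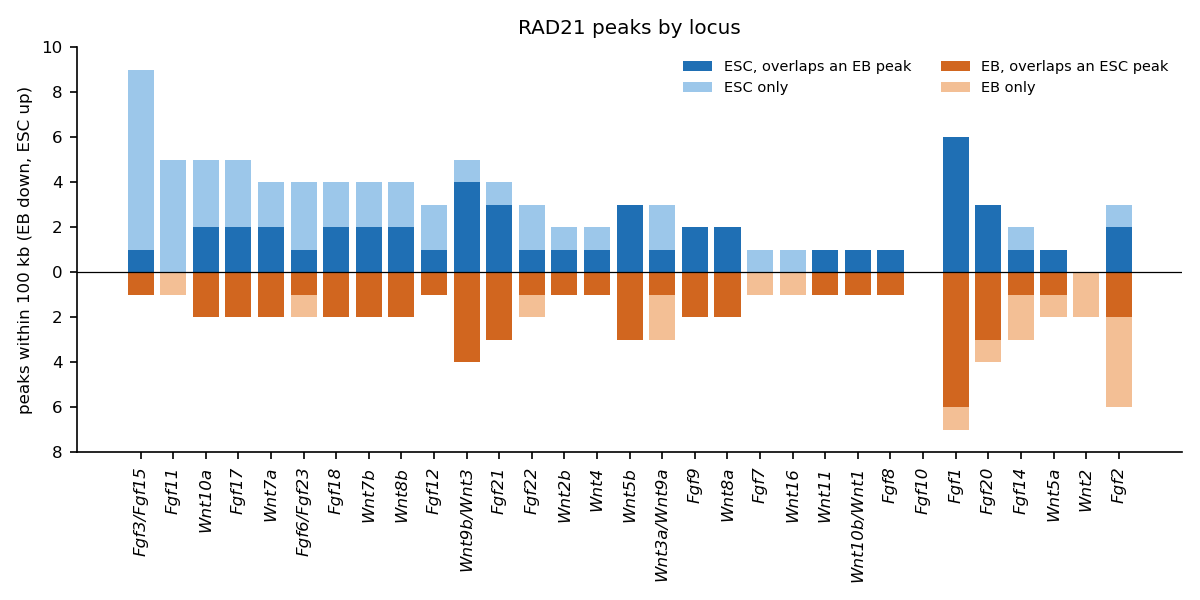
Number of deposited RAD21 peaks within 100 kb of the members of each of 31 loci (ESC up, EB down), with dark bars for peaks that overlap a peak of the other list and light bars for the rest. The Fgf3/Fgf15 locus has 9 ESC peaks and 1 EB peak, and the Fgf2 locus 3 and 6.

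The largest difference lay at Fgf3 and Fgf15 on chromosome 7. Fgf3 (ENSMUSG00000031074, chr7:152023988-152030341, plus strand) is a ligand of inner ear and tail development, and Fgf15 (ENSMUSG00000031073, chr7:152082437-152086858, plus strand) lies downstream of it. Their locus held 9 ESC peaks, of which 8 had no EB counterpart, and 1 EB peak. An ESC excess as large as that of Fgf3 was found at 0.211% of all genes and one as large as that of Fgf15 at 0.446%. Summed over the 9 ESC summits, RAD21 reads numbered 192 in ESCs and 41 in EBs, an EB to ESC ratio of 0.378 (0.263 to 0.532), with 24 and 10 IgG reads. Outside the peaks of this locus the ratio was 0.670 (0.604 to 0.743) for RAD21 and 0.771 (0.688 to 0.862) for IgG. The 8 peaks without a counterpart were listed because they were called in ESCs and not in EBs, so a low ratio at them describes the choice. At equal read numbers the locus had 7 ESC sites and 1 EB site.

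Single peaks of this locus differed strongly. The intergenic summit 47802 bp upstream of Fgf3, without a CTCF match, held 27 ESC and 2 EB RAD21 reads, with 3 and 0 IgG reads, a RAD21 ratio of 0.190 (0.0151 to 0.522). The summit 8344 bp downstream of the Fgf3 start, with a CTCF motif, held 23 and 2, a ratio of 0.221 (0.0176 to 0.624). Both peaks were listed in ESCs only, so their low EB reads follow from that choice. A summit 1972 bp upstream of Fgf15, in an exon of Gm17685, held 22 and 3 RAD21 reads. Peaks in a UTR and an intron of Ccnd1, the cyclin gene beyond Fgf15, held 17 against 6 and 25 against 7, with intervals that included 1. The shared peak, 61874 bp upstream of Fgf3 with a CTCF motif, held 23 and 13 RAD21 reads, a ratio of 1.03 (0.466 to 2.06).

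**Figure D4:**
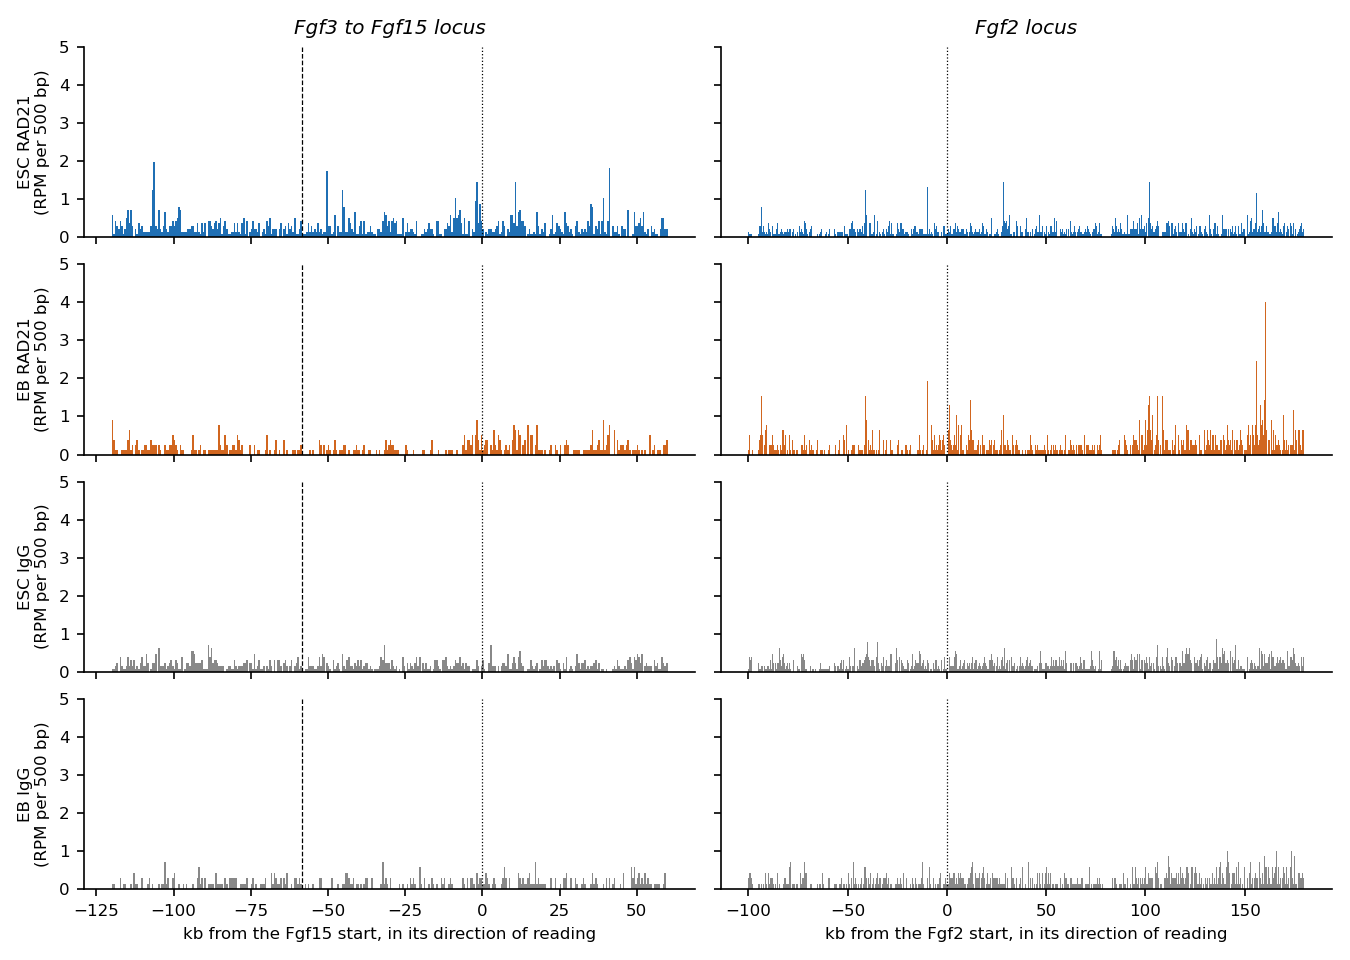
RPM in steps of 500 bp across the Fgf3 to Fgf15 locus (left, distance from the Fgf15 start at the dotted line, Fgf3 start dashed) and the Fgf2 locus (right, distance from the Fgf2 start), for the 4 libraries. Most ESC RAD21 columns of the left locus have no EB counterpart of like height, and the tallest EB RAD21 column lies 160 kb downstream of the Fgf2 start.

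Other loci with mostly ESC peaks were those of Fgf11, Fgf17 and Wnt10a. At equal read numbers, with the other caller, they had in this order 4, 5 and 6 ESC sites and 2, 2 and 3 EB sites. All 5 ESC peaks of Fgf11 on chromosome 11 lacked an EB counterpart, and their summed reads numbered 172 in ESCs and 30 in EBs, a ratio of 0.309 (0.202 to 0.457). Outside the peaks the ratio was 0.708 for RAD21 and 0.719 for IgG. These peaks, like the ESC-only peaks of Fgf17 below, were listed because they were called in ESCs and not in EBs. A low ratio at them therefore describes the choice, and setting it against DNA outside peaks is no test. The strongest, 86232 bp downstream of the start with a CTCF motif, held 58 and 9 RAD21 reads. Fgf17 (ENSMUSG00000022101, chr14:71036012-71042075, minus strand), a relative of Fgf8 used in brain patterning, had an ESC-only peak inside its own intron with 32 ESC and 2 EB RAD21 reads, a ratio of 0.161 (0.0129 to 0.434). A second ESC-only peak 4947 bp upstream held 30 and 3, a ratio of 0.229 (0.0346 to 0.570). The shared peaks of Fgf17 held 43 against 19 and 22 against 16 reads, at 0.805 and 1.31. Another ESC-only peak, in a UTR of Lgi3, was at 0.886. The low ratios were those of the peaks nearest to the gene, but both of these were chosen as ESC-only. No pattern with distance can therefore be read from them. Outside peaks the Fgf17 locus was at 0.907 for RAD21 and 0.799 for IgG.

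At Wnt10a a pair of peaks counted as shared held different summits. The ESC peak had its summit 17770 bp downstream of the start, with 18 ESC and 2 EB RAD21 reads, a ratio of 0.280 (0.0222 to 0.822). The overlapping EB peak had its summit at 16774 bp, with 13 ESC and 18 EB reads, a ratio of 2.40 (1.14 to 5.45). Each summit was placed where reads of its own cell type were high, so ratios on opposite sides of 1 follow in part from that choice. Wnt4, a signal of kidney and ovary formation (ENSMUSG00000036856, chr4:136833404-136855641, plus strand), had an ESC-only peak in its intron with a CTCF motif and 35 ESC and 9 EB reads, a ratio of 0.492 (0.193 to 0.967). Its shared peak 31053 bp downstream held 17 and 12, a ratio of 1.28. Wnt7a had an ESC-only peak 124616 bp downstream of its start with 29 and 4 reads, a ratio of 0.295 (0.0624 to 0.696), and the shared peak at 129907 bp held 37 and 22, a ratio of 1.07. At Wnt8b the ESC-only peak in an intron of Sec31b held 19 and 1 reads, a ratio of 0.177 (0.00224 to 0.587). The ESC-only peaks of Wnt4, Wnt7a and Wnt8b were listed because they were called in ESCs and not in EBs, so their low ratios describe the choice.

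Fewer loci had more EB than ESC peaks in the deposited lists, with the largest excess at Fgf2. Fgf2 (ENSMUSG00000037225, chr3:37211441-37304299, plus strand) had 6 EB and 3 ESC peaks, and only 0.996% of all genes had an EB excess as large. At equal read numbers, with the other caller, the locus had 7 EB and 5 ESC sites, a smaller excess. Of its 4 EB-only peaks, 3 lay in introns of Spata5, the gene downstream. The strongest, 160107 bp from the Fgf2 start and printed above, held 3 ESC and 33 EB RAD21 reads, a ratio of 15.1 (6.11 to 99.3), with 5 and 4 IgG reads. Another, at 108844 bp, held 1 and 11 RAD21 reads, a ratio of 10.6 (2.83 to 839), with 5 and 0 IgG reads. Both peaks were listed in EBs only, so their high ratios follow in part from that choice. The 2 shared peaks, both with a CTCF motif, held 18 against 14 and 22 against 19 reads at the ESC summits, at 1.4 and 1.54. Outside peaks the Fgf2 locus was at 1.30 (1.19 to 1.41) for RAD21 and 1.04 (0.955 to 1.14) for IgG, among the 6 loci where RAD21 there was not below 1.

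EB-only peaks with large ratios were also found elsewhere. They were listed because they were called in EBs and not in ESCs, so a high ratio at them describes the choice. At Fgf20 a peak 126614 bp downstream of the start held 1 ESC and 9 EB RAD21 reads, a ratio of 8.86 (2.21 to 699), with 8 and 0 IgG reads. At Fgf11 the EB-only peak in an intron of Polr2a held 7 and 21, a ratio of 4.87 (2.18 to 14.8), beside the 5 ESC-only peaks of that locus. Wnt2, a signal of lung and placenta, had no ESC peak and 2 EB-only peaks in introns of Asz1, both with a CTCF motif, which held 13 against 21 and 20 against 27 reads, at 2.78 (1.37 to 6.22) and 2.36 (1.29 to 4.5). Wnt5a, which directs cell polarity in the elongating body, had an EB-only peak in its own intron with 6 and 13 reads, a ratio of 3.54 (1.36 to 12.3), next to a shared peak with 21 and 16 reads. The Wnt2 peaks were listed in EBs only although ESC RAD21 exceeded IgG at 1 of them, with 13 against 2 reads, a ratio of 4.29 (1.35 to 54.5). At the other, 20 against 9 reads gave 1.93 (0.889 to 5.09), an interval that included 1.

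Shared peaks included the highest scores, the MACS score being 10 times the negative log10 of the p-value. The highest in ESCs, 518.7, lay 11197 bp upstream of Fgf1 in an intron of Arhgap26 and held 63 ESC and 35 EB reads, a ratio of 0.997 (0.632 to 1.51). Fgf1 (ENSMUSG00000036585, chr18:38998327-39089058, minus strand) had 6 ESC and 7 EB peaks, a number of EB peaks reached by 0.376% of all genes, and all 6 ESC peaks were shared. Their summed ratio was 0.728 (0.583 to 0.906), against 0.904 outside peaks. The 3 lowest were at 0.428 (0.203 to 0.747), 0.532 (0.231 to 0.995) and 0.554 (0.268 to 0.975). The highest EB score, 353.4, belonged to the intergenic peak between Wnt9b and Wnt3, which is printed above and held 60 ESC and 47 EB reads at the ESC summit, a ratio of 1.39 (0.927 to 2.07). Wnt5b had 3 peaks in each list, all shared, with ratios of 1.06 to 1.30, and the one in its own intron held 65 and 39 reads.

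Some shared peaks held more RAD21 in EBs. The peak 35662 bp upstream of Fgf9, a ligand of testis and lung growth (ENSMUSG00000021974, chr14:58689384-58731174, plus strand), held 20 ESC and 46 EB reads at the ESC summit, a ratio of 3.97 (2.36 to 7.27), with 0 and 4 IgG reads. Its score was 94.4 in ESCs and 336.6 in EBs, and it had no CTCF match. The peak 102581 bp downstream of Wnt1, a signal of the midbrain, with a CTCF motif, held 16 and 24 reads, a ratio of 2.61 (1.35 to 5.35). Shared peaks of Fgf12 at 45458 bp upstream and of Fgf20 at 120614 bp downstream were at 1.73 each, from 40 against 39 and 38 against 37 reads. Their intervals, 1.08 to 2.76 and 1.07 to 2.79, lay above 1 but included 1.31, the summed ratio at all autosomal shared peaks of the ESC list. These 2 peaks were thus not shown to be higher than other shared peaks. Loci with shared peaks thus differed from each other, from Fgf1 below 1 to Fgf9 above it.

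Taken by class, the peaks near members had read ratios like those of peaks elsewhere at single-list sites and lower ones at shared sites, where the IgG ratio was lower as well. The classes were defined on these reads, so the ratios describe them. At the 44 ESC-only peaks the summed EB to ESC ratio was 0.469 (0.410 to 0.534), against 0.436 (0.431 to 0.440) at all autosomal ESC-only peaks. At the 18 EB-only peaks it was 2.68 (2.23 to 3.23) against 2.85 (2.81 to 2.89). At the 49 shared peaks of the ESC list it was 1.07 (0.992 to 1.16) against 1.31 (1.30 to 1.32). IgG at the shared peaks was at 0.886 (0.684 to 1.14) near members and 1.10 (1.08 to 1.12) at all of them. The interval lay off 1 for 19 ESC-only, 8 shared and 12 EB-only peaks near members, so for many peaks listed once a difference was not detectable at this depth. The same count over all autosomal peaks is not given here, so these numbers do not set the members apart. Singly, 22 of the 93 ESC peaks were at 0.5 or below, 23.7% (15.5 to 33.6, background 28.7%), and 16 of the 67 EB peaks at 2 or above, 23.9% (14.3 to 35.9, background 34.2%). EB RAD21 was 3.38 times IgG at the ESC-only peaks, and ESC RAD21 was 2.33 times IgG at the EB-only peaks.

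**Figure D5:**
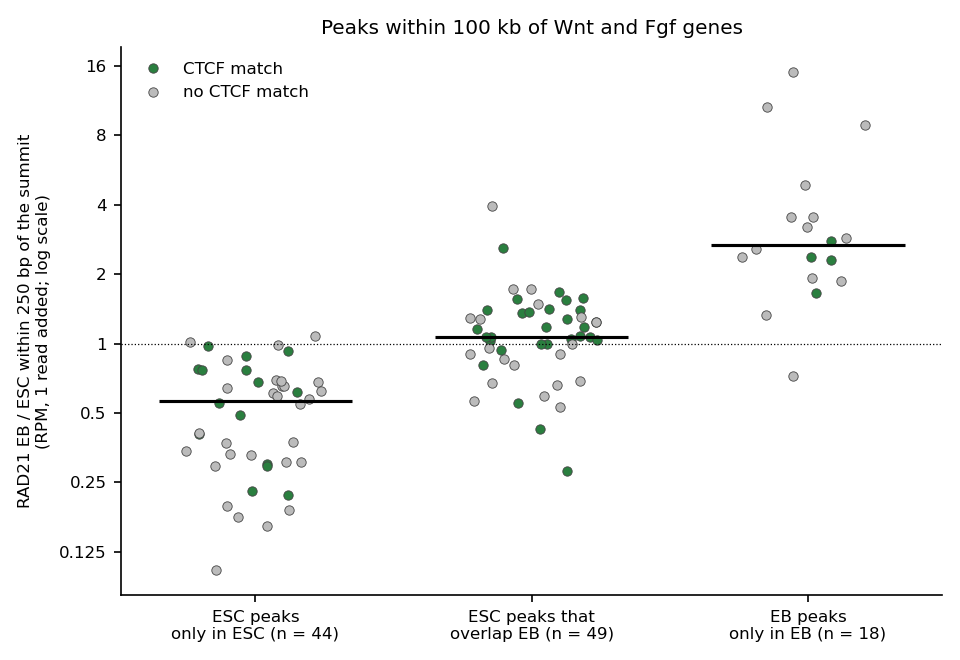
EB to ESC ratio of RAD21 reads (RPM, 1 read added, log scale) within 250 bp of the summit of each peak near a member, by class, with a CTCF motif in green and without in grey and a bar at the class median. The medians are 0.564 for the 44 ESC-only, 1.07 for the 49 shared and 2.68 for the 18 EB-only peaks.

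A CTCF motif lay within 150 bp of the summit in 44 of the 93 ESC peaks, 47.3% (36.9 to 57.9, background 44.4%), and in 33 of the 67 EB peaks, 49.3% (36.8 to 61.8, background 37.6%). Random windows held one in 0.595%. By class the share was 59.2% of shared, 34.1% of ESC-only and 22.2% of EB-only peaks near members, against 44.6%, 44.2% and 23.0% over the autosomes. With the threshold of 1e-04 the shares were 87.1% and 82.1% (backgrounds 88.5% and 83.6%). Read along the strand on which the matches above are printed, the summit lay downstream of the motif centre in 37 of 44 ESC peaks, 84.1% (69.9 to 93.4), and in 21 of 33 EB peaks, 63.6% (45.1 to 79.6). Over all autosomal peaks with a motif the shares were 81.6% and 73.5%. Near members the ESC summits lay a median of 50.5 bp from the motif centre and the EB summits 22.5 bp, against 47.5 bp and 43.5 bp over the autosomes. The match at the shared Wnt5b peak, printed above, had its summit 80.5 bp downstream.

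Short patterns of other factors were rare in these windows. The search covered both strands of the 150 bp on each side of the summit. Searched were ATGCAAAT for Oct factors, CATTGTT for Sox factors, TCAAGGTCA for Esrrb, AGATAAG for factors of the Gata family, and TGTTTAC for Fox factors. In this order they were found in 3, 3, 0, 4 and 1 of the 93 ESC peaks near members, against 1.80%, 4.61%, 0.742%, 3.33% and 4.12% of all autosomal ESC peaks. In the 67 EB peaks near members they were found in 1, 1, 0, 3 and 2, against 2.03%, 5.26%, 0.529%, 4.03% and 4.95% of all autosomal EB peaks. The exact intervals near members included the autosomal share for each pattern in both lists. The Oct pattern lay at an ESC-only peak of Fgf11, at the ESC-only peak 4947 bp upstream of Fgf17 and at the shared peak of Fgf2 in an intron of Nudt6. These matches describe the letters only, and no factor other than RAD21 was measured.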

How the data were processed

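RAD21 and IgG libraries of ESCs and EBs were grouped by their labels. The authors deposited aligned 35-base reads, 1 per line, on mm9, with 1 read per position and strand. The aligner is not given in the sources used here. The deposited peak score is 10 times the negative log10 of the MACS p-value, with a control library per cell type, and the deposited summit height is a read pileup signal. From the deposited positions, reads were counted here as raw counts per window. 7 broken lines of the ESC IgG library were skipped and only autosomes were used. Reads were moved to the centre of fragments of 205 bp (ESC) or 196 bp (EB). Gene starts are the 5′ ends of GENCODE M1 records. Intervals are exact conditional binomial for ratios and Clopper-Pearson for shares, from the reads as counted. The equal-depth caller slid a window of 400 bp in steps of 50 bp and kept those with a Poisson p of at most 1e-05 over the higher of the mean read density and the local IgG density, with ESC reads thinned once. The caller, motif search and start ratios were tested on simulated data. Python 3.11.15, numpy 2.4.6, scipy 1.17.1 and pysam 0.24.0 were used. Members, lists and patterns were chosen with earlier results of these data known. Named are members with a peak at the start, the 5 highest and lowest start ratios, the highest RAD21 to IgG ratios, the members with most peaks, and peaks of extreme ratio or score, while further peaks of their loci were named after their values were seen. Not every peak is described singly, and the values of 1 peak of extreme ratio are not reported here.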

Additional observations from a re-analysis of the deposited data

How the results depend on the processing

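No paired analysis was possible because each group held 1 library. The alternatives concerned window, pseudocount, scaling, filters and start choice, and 81 of 122 alternative values of the main results kept their direction and size. Of those of single genes and of medians over the members' starts, 337 of 351 did. Causes were not tested unless the setting itself is the cause.

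At the starts, the summed ESC RAD21 to IgG ratio was 1.81 within 500 bp, 1.28 after centring on all starts and 1.17 after centring on starts of like GC content. The number of members at 2 or more was 4 with 5 reads added, 6 after centring on all starts and 5 after centring by GC. The summed EB ratio was 1.74 within 2 kb, 1.05 after centring on all starts and 0.970, below 1, after centring by GC. The EB number was 5 within 500 bp, 2 with 5 reads added and 5 after centring by GC. The EB median was 0.895 within 500 bp, 0.868 after centring and 0.752 by GC. The summed EB to ESC ratio was 0.877 relative to IgG. Members at 0.5 or below numbered 5 within 2 kb and 0 with 5 reads added. Members at 2 or more numbered 2 with chromosome scaling and 5 relative to IgG. Single genes turned direction at few settings: Fgf2 in ESCs to 0.942 over all transcript starts, Fgf10 in ESCs to 2.57 at its first protein-coding start (chosen after seeing the data), Fgf8 within 500 bp to 0.895 over IgG in EBs and 0.886 for EB over ESC, and Fgf23 in EBs to 1.07 within 2 kb.

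Members with an ESC peak at the start numbered 1 by summit, 9 within 5 kb and 2 at a score of at least 100, and with an EB peak 0, 5 and 1. Distinct ESC peaks numbered 58 within 50 kb, 45 within 25 kb and 49 at a score of at least 100, and EB peaks 38, 29 and 28, as these settings take fewer peaks. The shared EB share was 85.7% at that score and 60.9% with the other caller at equal read numbers. The motif share was 87.1% of ESC and 82.1% of EB peaks at 1e-04, and 26.9% of ESC peaks within 75 bp. Centring on all shared peaks (1.31) gave a summed ratio of 0.359 and a median of 0.432 at ESC-only, 0.822 and 0.821, below 1, at shared, and 2.05 and 2.05 at EB-only peaks. Chromosome scaling gave a median of 1.23 at shared peaks. With 1 library per group, library differences and cell type differences cannot be told apart.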
